A study of Homo sapiens with 9 samples.

Results

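The genes described here are 9 components of extracellular proteolysis: the matrix metalloproteinases MMP1, MMP2, MMP7 and MMP14, the tissue inhibitors TIMP1, TIMP2 and TIMP3, urokinase (PLAU) and its receptor (PLAUR). They were found in the table of read counts by the NCBI gene identifiers that RefSeq pairs with these symbols, and all 9 were among the 28395 genes listed. RNA was sequenced from 3 human kidney lines that had been adapted to Plasmax, a medium with nutrient levels modelled on blood plasma. HK2 is an immortalised line of proximal tubule cells, 786-O is a parental line of clear cell renal cell carcinoma (ccRCC), and 786-M1A is a metastatic derivative of 786-O. No line was treated. Each line gave 3 libraries from replicate dishes, so the spread between libraries is that between dishes of a line, and a difference is one between these 3 lines and not between kinds of tumour. The 2 cancer lines share an origin and are both compared with the same HK2 libraries.

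The proteins of these genes act as a cascade at the cell surface. Urokinase bound to its receptor turns plasminogen into plasmin, which cleaves fibrin and can activate metalloproteinase zymogens; MMP14, a protease anchored in the membrane, activates pro-MMP2 with the help of TIMP2, and the TIMPs block the active enzymes. Interstitial collagenase (MMP1), gelatinase A (MMP2) and matrilysin (MMP7) are secreted, and in the kidney the family is best known for remodelling of basement membranes and interstitial collagen in repair, fibrosis and invasion.

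Totals per library lay between 30212291 and 45362428 counts, and levels are given as counts per 1000000 (CPM) on totals scaled by the TMM method of edgeR. The smallest amount read as present, 3 counts, was between 0.0649 and 0.0966 CPM, a floor that covers counting error only. All 9 libraries entered a quasi-likelihood fit of edgeR, and a gene was called where its p-value, after Benjamini-Hochberg adjustment over 12695 tested genes, was under 0.05. The 10 tubule markers summed to 1264 to 1336 CPM in HK2 libraries, 934 to 950.25 CPM in those of 786-O, and 683 to 706 CPM in those of 786-M1A. The kidney cadherin CDH6 carried most of the fall (886, 409.8 and 266 CPM), and ANPEP was highest in 786-O (1.75, 112 and 19.8 CPM). PAX8 was at 162.9 to 192 CPM over the 9 libraries. LRP2, the megalin gene of differentiated tubule, was at 0 counts in every library, including those of HK2. Over the 5 ccRCC markers, the summed level was 269.97 to 281 CPM in HK2, 1344 to 1373 CPM in 786-O, and 786-M1A had 1953 to 2054 CPM, while CA9 had at most 3 counts in any library. Most of this sum was the glucose transporter SLC2A1 (194, 811 and 1061 CPM), and VEGFA, CD70 and EGLN3 rose in the same order. NDUFA4L2, also chosen as a ccRCC marker, was not among the genes listed. The 6 leukocyte markers summed to 26.6 to 53.7 CPM, nearly all of it CD68, which had 1032 to 2356 counts in a library, while PTPRC, CD3E and MS4A1 were at 0 counts, LYZ had at most 3 and CD14 at most 21.

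MMP2, the gelatinase that cleaves denatured collagen and type IV collagen of basement membrane, was the member that differed most between lines. Its gene lies on chromosome 16 (GRCh38, 55478830 to 55506691, plus strand). HK2 libraries 1 to 3 had 0.483, 0.373 and 0.497 CPM (15 to 23 counts), 786-O libraries had 112.6, 112.5 and 109.4 CPM, and 786-M1A libraries had 742, 712 and 723 CPM. The 3 lines formed 3 steps without overlap, and the HK2 libraries, though low, were above the floor of 3 counts. In RNA from a whole culture, more cells with MMP2 and more MMP2 RNA per cell cannot be told apart, and the same holds for the other genes. MMP2 was 246-fold higher in 786-O than in HK2 (log2 fold change 7.94, standard error of this log2 value (SE) 0.074, edgeR adjusted p = 8.95e-27) and 1598-fold higher in 786-M1A (10.64, SE 0.069, edgeR adjusted p = 6.40e-29). Between the cancer lines it was 6.51-fold higher in 786-M1A (2.70, SE 0.037, edgeR adjusted p = 1.54e-22). Ranked by p among the 12695 genes tested, it was number 13 for 786-O against HK2, number 1 for 786-M1A against HK2 and number 2 for 786-M1A against 786-O. Its mean reached the filter of 50 counts in 2 of the 3 lines, the cancer lines, so MMP2 entered the test only through the lines in which it was high.

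MMP2 is also a gene of fibroblasts, and 8 fibroblast markers were counted beside it. Their summed level was 78.4 to 87.7 CPM in HK2, 282 to 352 CPM in 786-O, and 786-M1A had 303 to 307 CPM. In 786-O most of this sum was COL1A1 (292 CPM, against 16.5 CPM in 786-M1A), and in 786-M1A most of it was PDGFRB (282 CPM, against 2.60 CPM in 786-O). PDGFRB, at 5.00 CPM in HK2, was thus highest in the line where MMP2 was highest, whereas LUM, at 22.5, 14.6 and 5.48 CPM in HK2, 786-O and 786-M1A, went down from line to line. COL3A1 had 24 to 40 counts in HK2, 141 to 164 in 786-O and 0 or 1 in 786-M1A, THY1 had 2 to 30 counts in a library, and DCN, PDGFRA and COL1A2 had at most 7. The part of these genes in the MMP2 result was not tested.

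MMP14, the membrane-type metalloproteinase that activates MMP2, was higher in both cancer lines. The gene lies on chromosome 14 (22836585 to 22847758, plus strand). HK2 had 302, 305 and 313 CPM, 786-O had 610, 614 and 609 CPM, and 786-M1A had 718, 700.4 and 681 CPM. Every library of 786-M1A was above every one of 786-O, by less than 786-O was above HK2. Against HK2 it rose by 0.99 on the log2 scale in 786-O (SE 0.033, edgeR adjusted p = 3.04e-17) and 1.19 in 786-M1A (SE 0.034, edgeR adjusted p = 1.09e-18). Between 786-M1A and 786-O it was 0.20, a 1.15-fold difference (SE 0.033, edgeR adjusted p = 2.90e-05).

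The secreted proteases MMP1 and MMP7 went the other way and were lower in both cancer lines. MMP1, which cleaves fibrillar collagen, lies on the minus strand of chromosome 11 (102789919 to 102798160). Its HK2 libraries had 83.8, 102 and 90.9 CPM, its 786-O libraries 5.17, 5.34 and 6.22 CPM, and its 786-M1A libraries 1.72, 1.62 and 1.64 CPM, which are 62 counts in each of the 3. MMP1 was 16.6-fold lower in 786-O than in HK2 (log2 fold change -4.05, SE 0.078, edgeR adjusted p = 3.08e-19) and 55.7-fold lower in 786-M1A (-5.80, SE 0.097, edgeR adjusted p = 3.22e-20). It was thus the member that fell furthest, and 786-M1A was lower than 786-O by 3.36-fold (-1.75, SE 0.14, edgeR adjusted p = 4.19e-09).

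MMP7, matrilysin, is a small protease of epithelia and lies on the same arm of chromosome 11 (102520508 to 102530747, minus strand). It had 115.5, 127.7 and 120.8 CPM in HK2, 17.1, 16.9 and 19.4 CPM in 786-O, and 8.88, 10.4 and 9.89 CPM in 786-M1A. The order of the lines was that of MMP1, with smaller steps. MMP7 fell by 2.77 on the log2 scale in 786-O against HK2 (SE 0.058, edgeR adjusted p = 1.19e-20), by 3.64 in 786-M1A against HK2 (SE 0.064, edgeR adjusted p = 4.29e-22) and by 0.87 from 786-O to 786-M1A (SE 0.072, edgeR adjusted p = 1.38e-09).

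RefSeq start-site windows on GRCh38.p14, 250 bases before to 50 after the start, were at hand for 6 members. They are shown for MMP7, which was lower in both cancer lines, for MMP14 and PLAUR, which were higher in both, and for TIMP3, which was not detected, so that genes of unlike level can be read side by side. Each is written 5′ to 3′ on the strand of the gene, and capitals mark matches on either strand to AP-1 (TGANTCA), ETS (AGGAA), the GC box (GGGCGG) and the TATA box (TATAAA); no 2 matches overlapped. The windows are chr11:102530698-102530997 (minus strand), chr14:22836335-22836634 (plus), chr19:43670120-43670419 (minus) and chr22:32801455-32801754 (plus), in the order given.
MMP7: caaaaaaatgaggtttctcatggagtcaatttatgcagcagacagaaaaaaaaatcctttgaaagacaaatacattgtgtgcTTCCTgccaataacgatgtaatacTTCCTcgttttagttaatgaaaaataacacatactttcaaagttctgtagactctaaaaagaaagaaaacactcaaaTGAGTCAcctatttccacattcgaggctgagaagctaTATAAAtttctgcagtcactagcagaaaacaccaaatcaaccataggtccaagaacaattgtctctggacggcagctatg
MMP14: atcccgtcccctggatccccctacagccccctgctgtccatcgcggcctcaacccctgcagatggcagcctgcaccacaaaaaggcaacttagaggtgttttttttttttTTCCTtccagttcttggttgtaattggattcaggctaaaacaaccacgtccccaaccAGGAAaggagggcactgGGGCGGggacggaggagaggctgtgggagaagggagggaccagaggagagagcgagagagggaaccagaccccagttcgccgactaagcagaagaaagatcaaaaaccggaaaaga
PLAUR: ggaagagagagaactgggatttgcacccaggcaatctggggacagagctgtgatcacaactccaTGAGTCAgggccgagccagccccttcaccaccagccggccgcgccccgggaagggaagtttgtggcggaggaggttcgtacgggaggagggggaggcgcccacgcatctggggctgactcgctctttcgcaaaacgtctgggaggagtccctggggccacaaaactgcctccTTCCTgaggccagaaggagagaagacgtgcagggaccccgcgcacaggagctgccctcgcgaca
TIMP3: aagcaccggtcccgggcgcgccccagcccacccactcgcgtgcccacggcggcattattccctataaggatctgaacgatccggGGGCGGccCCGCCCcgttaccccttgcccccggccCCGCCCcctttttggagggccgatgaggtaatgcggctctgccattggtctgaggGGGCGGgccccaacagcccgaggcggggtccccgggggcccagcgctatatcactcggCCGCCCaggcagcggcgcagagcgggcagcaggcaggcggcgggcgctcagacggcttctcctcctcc

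The MMP7 window held an AP-1 match at -67 to -61, a TATA box at -30 to -25 and 2 ETS matches. The PLAUR window held an AP-1 match at -186 to -180 and 1 ETS match. AP-1 letters thus stood in the window of a gene that was lower and of a gene that was higher in the cancer lines. They were absent from the windows of PLAU and TIMP1, which are not shown and were lower, and from that of MMP14, which was higher. MMP14 had 2 ETS matches and 1 GC box, and TIMP3 had 5 GC boxes and none of the other motifs. Of 35116 RefSeq windows of this length, 7.71% held AP-1, 63.1% ETS, 45% the GC box and 11.5% the TATA box. A match describes letters only and is no evidence of binding.

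**Figure D1:**
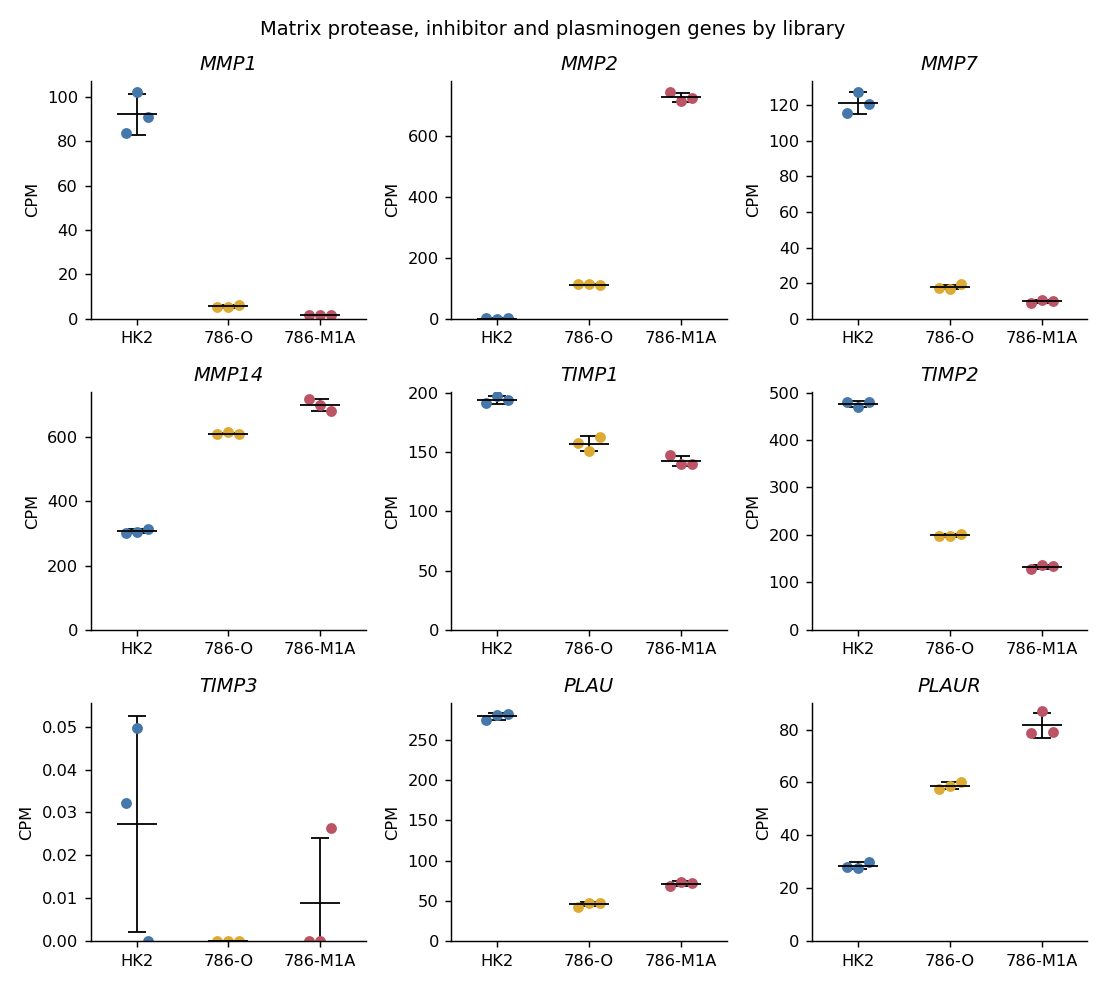
Level of each of the 9 genes in CPM (linear axes that start at 0 and differ between panels) in the 3 libraries of HK2, 786-O and 786-M1A; points are libraries, and lines are the mean ± SD of 3. MMP2, MMP14 and PLAUR step up from HK2 to 786-M1A, MMP1, MMP7, TIMP1 and TIMP2 step down, PLAU is lowest in 786-O, and the TIMP3 panel spans 0 to 2 counts, under the floor of 3.

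TIMP1 and TIMP2 were lower in the cancer lines, and TIMP3 was at or near 0 in all 3 lines. TIMP2, which blocks metalloproteinases and also forms the complex through which MMP14 binds pro-MMP2, lies on chromosome 17 (78852977 to 78925387, minus strand). It had 480, 469 and 480 CPM in HK2, 197, 197 and 202 CPM in 786-O, and 786-M1A had 127, 136 and 135 CPM. The lines did not overlap, with HK2 highest and 786-M1A lowest. The log2 fold change was -1.26 in 786-O against HK2 (SE 0.036, edgeR adjusted p = 1.43e-18), -1.84 in 786-M1A against HK2 (SE 0.037, edgeR adjusted p = 2.38e-21) and -0.58 between 786-M1A and 786-O (SE 0.036, edgeR adjusted p = 1.09e-11).

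TIMP1, an inducible inhibitor, lies on the X chromosome (47582436 to 47586789, plus strand) and differed least among the members tested. HK2 had 191, 198 and 194 CPM, 786-O had 158, 151 and 163 CPM, and 786-M1A had 148, 140 and 140 CPM. The highest 786-M1A library lay just under the lowest 786-O library. TIMP1 was 1.23-fold lower in 786-O than in HK2 (log2 fold change -0.30, SE 0.039, edgeR adjusted p = 2.39e-07) and 1.36-fold lower in 786-M1A (-0.45, SE 0.039, edgeR adjusted p = 5.12e-10). Between the cancer lines the difference was 1.10-fold (-0.14, SE 0.039, edgeR adjusted p = 0.00364), and its adjusted p ran from 0.00114 to 0.034 over 18 alternative settings.

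TIMP3, the inhibitor that is held in the matrix (chromosome 22, 32801705 to 32863041, plus strand), was not detectable at this depth in any line. Libraries 1 to 3 had 1, 2 and 0 counts in HK2, 0 in each of 786-O, and 0, 0 and 1 in 786-M1A. All 9 libraries were under the floor of 3 counts, TIMP3 did not pass the filter and was not tested, and no fold is given.

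In the plasminogen system the protease was lower and its receptor higher in both cancer lines than in HK2, and both were higher in 786-M1A than in 786-O. PLAU, which makes plasmin from plasminogen, lies on chromosome 10 (73908832 to 73917494, plus strand). It had 275, 281 and 283 CPM in HK2, 42.7, 46.7 and 47.1 CPM in 786-O, and 786-M1A had 67.9, 73.9 and 71.9 CPM. It was the only member tested whose lowest level was in 786-O. The log2 fold change was -2.62 in 786-O against HK2 (SE 0.045, edgeR adjusted p = 2.23e-22) and -1.97 in 786-M1A against HK2 (SE 0.044, edgeR adjusted p = 1.57e-20). Between the cancer lines PLAU was 1.57-fold higher in 786-M1A (0.65, SE 0.045, edgeR adjusted p = 8.48e-11).

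PLAUR, the receptor that holds urokinase at the membrane, lies on chromosome 19 (43646095 to 43670169, minus strand). It had 27.9, 27.6 and 30.01 CPM in HK2, 57.7, 58.9 and 60.0 CPM in 786-O, and 786-M1A had 78.6, 87.0 and 79.1 CPM. The receptor rose in the order in which TIMP2 fell. Its log2 fold change was 1.04 in 786-O against HK2 (SE 0.050, edgeR adjusted p = 1.82e-14), 1.52 in 786-M1A against HK2 (SE 0.050, edgeR adjusted p = 1.72e-17) and 0.47 between 786-M1A and 786-O (SE 0.047, edgeR adjusted p = 2.09e-08).

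Counted over the members, 8 of the 9 passed the filter on low counts, and each of the 8 differed in each of the 3 comparisons. In 786-O against HK2, 3 members were called higher and 5 lower, where 41.6% of all genes tested were called higher and 42.6% lower. In 786-M1A against HK2 the same counts were 3 and 5, against 41.6% and 43.3% of all genes. In 786-M1A against 786-O they were 4 and 4, against 27.9% and 28% of all genes. Against HK2, most genes tested were called, so being called is common there.

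At least 2-fold differences were found for 2 members higher and 4 lower in 786-O against HK2, where 9.18% and 13.1% of all genes were that far apart. MMP14 missed the first count with a 1.99-fold difference. In 786-M1A against HK2, 3 members were at least 2-fold higher and 4 lower, against 10.4% and 15% of all genes. In 786-M1A against 786-O there was 1 member in each direction, MMP2 higher and MMP1 lower, against 2.03% and 4.55% of all genes. The libraries of the lines compared did not overlap for 8 of 8 members in each comparison, which held for 85.5% of all genes in 786-O against HK2, for 85% in 786-M1A against HK2 and for 61.6% in 786-M1A against 786-O. An exact two-sided permutation test gave p = 0.1 for each of these, the smallest that 3 libraries against 3 allow. The median log2 fold change of the 8 members was -0.78 in 786-O against HK2, -1.14 in 786-M1A against HK2 and 0.03 between the cancer lines, and that of all genes was -0.01, -0.02 and 0.

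**Figure D2:**
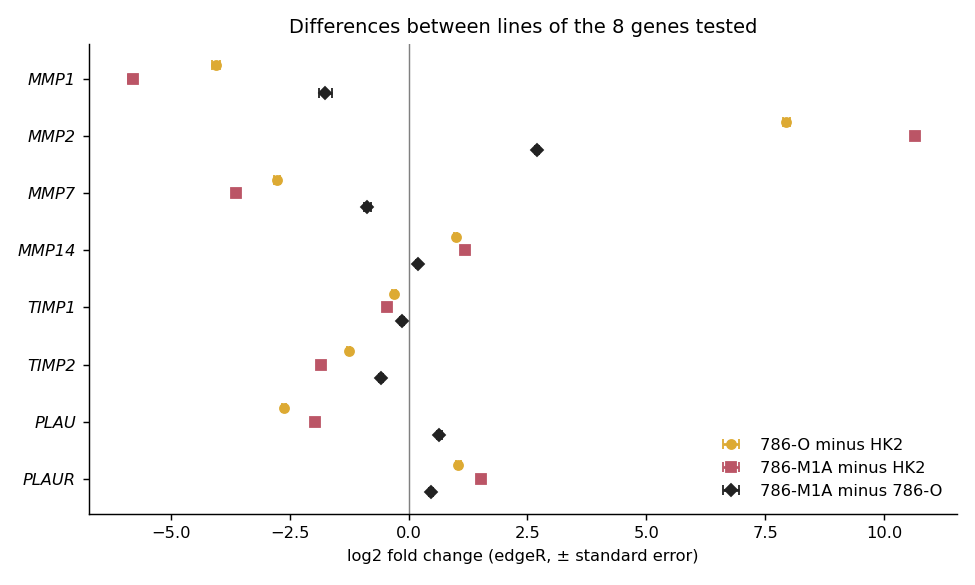
Log2 fold change (edgeR, bars are the standard error) of the 8 members tested, for 786-O minus HK2 (circles), 786-M1A minus HK2 (squares) and 786-M1A minus 786-O (diamonds). MMP2 is farthest to the right in all 3 comparisons, up to 10.64, MMP1 is farthest to the left at -5.80, and PLAU is the gene whose sign against HK2 is opposite to that between the cancer lines.

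Levels of different genes were set side by side only after division by the length of the transcript (CPM per kb of the canonical transcript). In HK2 the order from high to low was TIMP1 (252 CPM per kb), TIMP2 (131), PLAU (119), MMP7 (108), MMP14 (82.9), MMP1 (46.8), PLAUR (20.8), MMP2 (0.128) and TIMP3. In 786-O it was TIMP1 (205 CPM per kb), MMP14 (165), TIMP2 (54.5), PLAUR (43.0), MMP2 (31.7), PLAU (19.4), MMP7 (15.9), MMP1 (2.83) and TIMP3. In 786-M1A it was MMP2 (206 CPM per kb), MMP14 (189), TIMP1 (185), PLAUR (59.6), TIMP2 (36.4), PLAU (30.4), MMP7 (8.70), MMP1 (0.841) and TIMP3. Neighbours in these orders did not overlap between libraries, except MMP14 and TIMP1 in 786-M1A, which ran from 184 to 194 and from 182 to 192 CPM per kb. On this scale MMP2 was in the eighth place in HK2 and in the first in 786-M1A. With the length of all exons in place of the canonical transcript, a choice made after the data were seen, PLAU was above TIMP2 and MMP14 above MMP7 in HK2, MMP14 was above TIMP1 in 786-O, PLAUR was in the sixth place in both cancer lines, and PLAU was above TIMP2 in 786-M1A too. MMP2 (151 to 158 CPM per kb of exons) and MMP14 (147 to 155) then overlapped in 786-M1A, so MMP2 was not separated from MMP14 there on that length.

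The metalloproteinase transcripts of the 3 lines were made up differently. Summed over 23 MMP genes, the level was 309 ± 12.3 CPM per kb (SD, n = 3) in HK2, 253 ± 1.59 in 786-O, and 423 ± 8.40 for 786-M1A, and summed over the 4 TIMP genes it was 383 ± 2.78, 259 ± 8.51 and 222 ± 4.60 CPM per kb. In HK2, MMP7 took 35.1 ± 0.385% of the MMP sum, MMP14 26.8 ± 1.08%, MMP1 15.1 ± 0.909% and MMP13, another collagenase, 13.6 ± 0.464%. No single gene made up most of the sum in HK2, whereas MMP14 did in 786-O. In 786-O, MMP14 took 65.3 ± 0.687%, MMP2 12.6 ± 0.281% and MMP13 10.7 ± 0.456%. In 786-M1A, MMP2 and MMP14 together made up most of the sum, with 48.8 ± 0.557% and 44.7 ± 0.479%. With the length of all exons MMP14 led in HK2 with 30.1%, ahead of MMP7 with 23.7%.

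**Figure D3:**
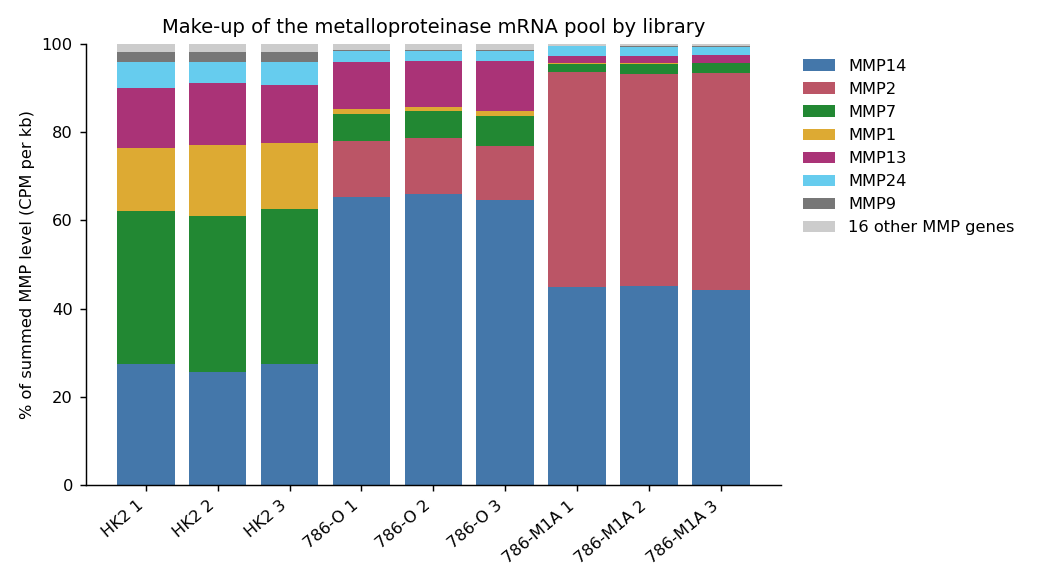
Share of each metalloproteinase gene in the summed MMP level (CPM per kb of canonical transcript, in percent) in each of the 9 libraries, with 7 genes named and 16 others in light grey. MMP7, MMP14, MMP1 and MMP13 share the HK2 bars, MMP14 fills 65.3% of the 786-O bars on average, and MMP2 with MMP14 fills most of the 786-M1A bars.

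Ratios within a library compare a protease with its partner on the per-length scale and are given as values, with no test. MMP14 to TIMP2 was 0.635 ± 0.0123 (SD, n = 3) in HK2, 3.03 ± 0.0537 in 786-O and then 5.21 ± 0.314 in 786-M1A. MMP2 to TIMP2 was 0.000982 ± 0.000137 in HK2, against 0.583 ± 0.0176 in 786-O and, higher again, 5.68 ± 0.324 in 786-M1A. Both ratios rose in the order HK2, 786-O, 786-M1A, since the numerator was higher and TIMP2 lower at each step. MMP1 to TIMP1 fell in that order, from 0.185 ± 0.0154 to 0.0138 ± 0.00104 and 0.00454 ± 2.51e-05. PLAU to PLAUR was 5.73 ± 0.229 in HK2, but 0.451 ± 0.0168 in 786-O, with 0.510 ± 0.0182 in 786-M1A. With the length of all exons, which multiplies a ratio by the same factor in every library, it was 14.8, 1.17 and 1.32, so whether the cancer lines lay under or over 1 depended on the length used.

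**Figure D4:**
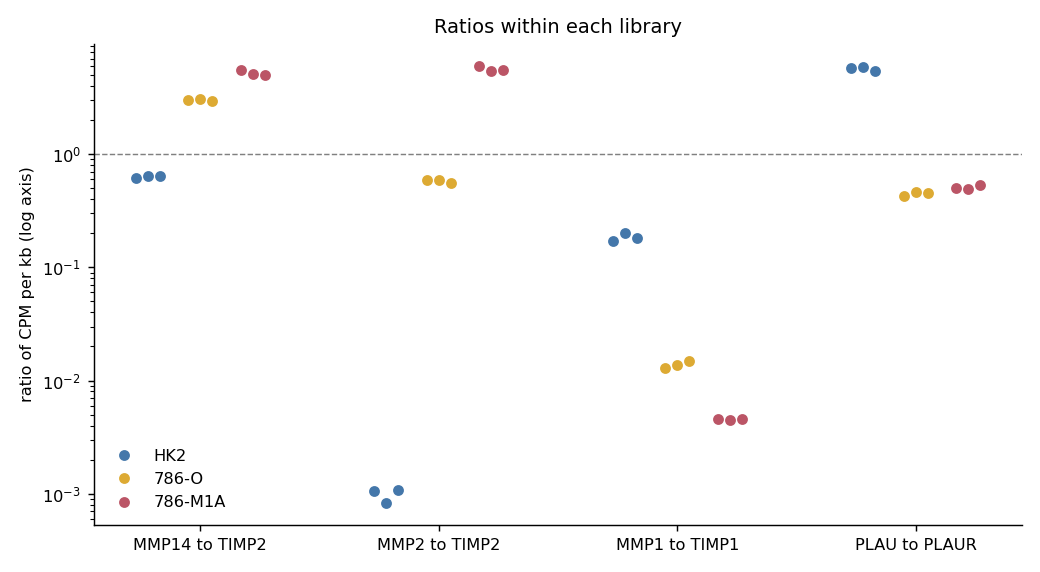
Ratio of 2 genes within each library (CPM per kb of canonical transcript, log axis, dashed line at 1), with points for the 3 libraries of HK2, 786-O and 786-M1A. MMP14 to TIMP2 and MMP2 to TIMP2 rise from HK2 to 786-M1A, MMP1 to TIMP1 falls, and PLAU to PLAUR is lower in both cancer lines than in HK2.

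PLAT, which encodes the other plasminogen activator of tissues, was at 13.2 CPM in HK2 and at 0.606 and 0.916 CPM in 786-O and 786-M1A, which are log2 fold changes of -4.47 and -3.86 against HK2 (edgeR adjusted p = 8.49e-14 and 2.71e-13). It had 375 to 682 counts in HK2 but 20 to 31 and 25 to 48 in the cancer lines, so it entered the test only through HK2, and the same holds for FOSB, HTRA3 and PRSS8, described with the list.

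MMP1 and MMP7 lie in a run of 9 MMP genes on chromosome 11 that spans 435225 bases (102520508 to 102955732, all on the minus strand). Of these 9, 3 passed the filter, MMP7, MMP1 and MMP13, and all 3 were lower in 786-M1A than in 786-O and lower in 786-O than in HK2. Over all genes tested, 28% were called lower in 786-M1A than in 786-O and 42.6% lower in 786-O than in HK2. The pattern was not confined to the run, since MMP9, MMP15 and MMP16, which lie elsewhere, were also called lower in both comparisons. Of the other metalloproteinases tested outside it, MMP2 and MMP14 were higher in both. MMP24 was lower in 786-O than in HK2 and higher in 786-M1A than in 786-O. MMP13, collagenase 3, at the far end of the run from MMP7, had 114, 73.6 and 18.7 CPM in HK2, 786-O and 786-M1A, with log2 fold changes of -0.63 (786-O against HK2, edgeR adjusted p = 3.88e-10) and -1.97 (786-M1A against 786-O, edgeR adjusted p = 2.11e-16). MMP10, stromelysin 2, was below the filter, with 29 to 53 counts in HK2, 5 to 13 in 786-O and 1 to 6 in 786-M1A. MMP3 had 4 to 12 counts in HK2 and at most 2 in the cancer lines. The other 4 genes, MMP8, MMP12, MMP20 and MMP27, had at most 3 counts in any library.

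For context, 128 genes of extracellular proteolysis and its regulation were counted in 11 classes, the members included, and 79 of them were tested. In 786-O against HK2, 33 were called higher and 42 lower, in 786-M1A against HK2, 30 and 40, and in 786-M1A against 786-O, 24 and 36. These are 41.8% and 53.2%, 38.0% and 50.6%, and 30.4% and 45.6% of the 79, where all genes tested gave 41.6% and 42.6%, 41.6% and 43.3%, and 27.9% and 28%. At least 2-fold, the counts were 12 and 23, 16 and 26, and 2 and 11, which are 15.2% and 29.1%, 20.3% and 32.9%, and 2.53% and 13.9% of the list, beside 9.18% and 13.1%, 10.4% and 15%, and 2.03% and 4.55% of all genes. The 2 genes at least 2-fold higher in 786-M1A than in 786-O were MMP2 and CTSZ, which encodes the lysosomal protease cathepsin Z and went from 879.8 to 1961 CPM. The median log2 fold change of the list was -0.21, -0.14 and -0.07, beside -0.01, -0.02 and 0 over all genes.

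Class counts are small and are to be read against the 41.6% of all genes called higher and the 42.6% or 43.3% called lower against HK2. By class, 7 of the 9 metalloproteinases tested were lower and 2, MMP2 and MMP14, higher in each cancer line against HK2. Of 7 metalloproteinase inhibitors listed, the 3 tested, TIMP1, TIMP2 and RECK, a membrane-anchored inhibitor, were lower in each comparison. In 786-M1A against 786-O, 28% of all genes were called lower. RECK stood at 14.3, 9.48 and 7.48 CPM in HK2, 786-O and 786-M1A. The plasminogen class was mixed, with 8 of 13 higher and 5 lower in 786-O against HK2 and 7 higher and 4 lower in 786-M1A against HK2. Among 6 ADAM sheddases, 5 were higher in both cancer lines than in HK2. ADAM9, which sheds membrane proteins, led them with 22.9, 505 and 465 CPM in the lines in that order (log2 fold change 4.47 and 4.35, edgeR adjusted p = 1.03e-25 and 1.33e-25).

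The list genes with the largest differences beside the members were mostly lower in the cancer lines. ADAMTS12, a secreted metalloproteinase known to cleave cartilage oligomeric matrix protein, fell from 93.5 CPM in HK2 to 1.38 CPM in 786-O (log2 fold change -6.08, edgeR adjusted p = 1.54e-23) and 1.29 CPM in 786-M1A (-6.16, edgeR adjusted p = 1.86e-23). MMP9, gelatinase B, fell from 16.4 CPM in HK2 to 1.89 CPM in 786-O, and 786-M1A had 0.606 CPM (log2 fold change -3.11 and -4.76, edgeR adjusted p = 5.62e-18 and 2.04e-19). The 2 gelatinase genes, MMP2 and MMP9, thus differed between the lines in opposite directions. SPINT1, an inhibitor of surface serine proteases, stood at 45.2, 6.75 and 0.792 CPM in HK2, 786-O and 786-M1A, and one of the proteases of that surface group, PRSS8 (prostasin), had 406 to 620 counts in HK2, 9 to 15 in 786-O and 2 or 3 in 786-M1A, at or under the floor.

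Further list genes were lowest in 786-M1A or differed between 786-O and HK2. ETV1, an ETS transcription factor, stood at 75.1, 24.95 and 3.09 CPM in HK2, 786-O and 786-M1A, and its log2 fold change between the cancer lines was -3.01 (edgeR adjusted p = 1.44e-12). SERPINF2, which encodes the plasmin inhibitor alpha-2-antiplasmin, was at 10.9, 4.07 and 0.356 CPM, and its difference between 786-M1A and 786-O, -3.51, was the largest of the list (edgeR adjusted p = 7.54e-13). ADAMTS15 was at 25.6 CPM in HK2, was higher in 786-O with 30.8 CPM (log2 fold change 0.28, edgeR adjusted p = 0.00488) and fell to 7.13 CPM in 786-M1A (-2.11 against 786-O, edgeR adjusted p = 2.70e-11). FOSB, an AP-1 subunit, was at 5.78 CPM in HK2 and 0.558 CPM in 786-O (-3.37, edgeR adjusted p = 6.64e-15).

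A few list genes were near 0 in a line. ADAMTS2, the procollagen N-proteinase, had 0 to 2 counts in HK2 libraries, 274 to 341 counts in 786-O and 480 to 547 counts in 786-M1A, and its fitted fold change against HK2 depends on the prior count and is not given. HTRA3, a secreted serine protease, had 138 to 189 counts in HK2, 2 to 6 in 786-O and 0 or 1 in 786-M1A. ADAMTS16 went from 2.09 CPM in HK2 to 20.2 CPM in 786-O (log2 fold change 3.27, edgeR adjusted p = 2.12e-19).

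**Figure D5:**
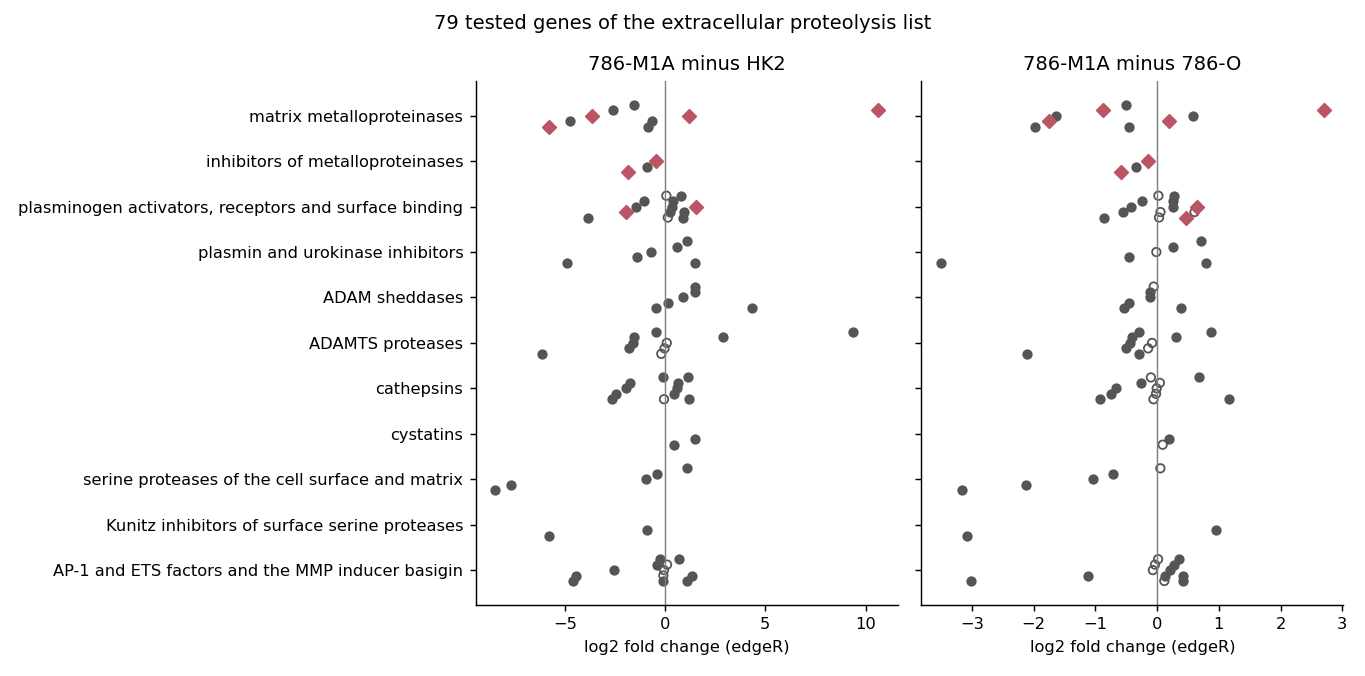
Log2 fold change (edgeR) of the 79 tested genes of the proteolysis list by class, for 786-M1A minus HK2 (left) and 786-M1A minus 786-O (right); diamonds are members, filled circles other genes called and open circles genes not called. The metalloproteinase row spans from -5.80 (MMP1) to 10.64 (MMP2) against HK2, all inhibitors of metalloproteinases lie left of 0, and the point at 9.38 among ADAMTS proteases is ADAMTS2, whose value depends on the prior count because HK2 had 0 to 2 counts. The points of HTRA3 (-8.50 left, -3.16 right) and PRSS8 (-7.70 and -2.12) rest on 0 or 1 and 2 or 3 counts in 786-M1A, at or under the floor.

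The genes whose levels over the 3 lines were nearest to those of a member were found by the distance between line means of log2 CPM, centred on their own mean, and are a description over 3 lines. Tested genes without a symbol, or with a symbol that starts with LOC, were left out. None of the other tested genes lay within 0.25 of MMP2. The nearest were CYTIP, with 0, 5.35 and 55.9 CPM in the lines from HK2 to 786-M1A, and ACKR3, with 0.00828, 11.9 and 27.8 CPM, and since both were under the floor in HK2, where the prior count sets the value, their distances are not given. For MMP1 there were 5 genes within 0.25, GLMP among the nearest and RTL5, which was under the floor in 786-M1A with 0.0529 CPM, for PLAU 11, TRAF5 and RAP1GAP nearest, and for MMP7 13, MARCHF4 and ASRGL1 nearest. The patterns of TIMP2 (100 genes, HPGD and CNST nearest), PLAUR (213, PAXIP1-DT nearest), MMP14 (600, SNHG12 and DVL1) and TIMP1 (2295, ZNF326 and NEAT1) were shared by many genes.

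Several members overlap other genes, and whether counting used the strand is not given in the sources used here. MMP2 shares exonic bases with ENSG00000279030 on its own strand, and MMP2-AS1 and ENSG00000274508 lie opposite with no exon shared. None of these was matched by name among the genes listed, so no counts can be given for them, and the same holds for some genes that overlap TIMP1, TIMP2 and PLAUR. WTAPP1, a pseudogene on the opposite strand that shares exonic bases with MMP1, had 0 to 8 counts, C10orf55, opposite PLAU, had 9 to 22 counts, and CEP295NL, on the strand of TIMP2, had 0 to 24 counts. SYN1, within which TIMP1 lies on the opposite strand with no exon shared, had 80 to 106 counts in HK2 and 0 to 3 in the cancer lines, and SYN3, around TIMP3, had 0 to 5. These counts are small beside those of the members they overlap, TIMP3 apart, and reads that could belong to either gene were not resolved.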

How the data were processed

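RNA of 9 libraries, 3 each of HK2, 786-O and 786-M1A, was prepared with a stranded poly(A) kit and sequenced by the authors. They deposited whole-number counts per gene, made with featureCounts of Rsubread on GRCh38 (hg38), without normalization or filter; the annotation release is not given in the sources used here. Of 28395 gene identifiers, 27745 matched a RefSeq symbol. Total counts were 30212291 to 45362428 per library.

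The 12695 genes that averaged 50 or more counts were normalized by TMM and fitted with the robust quasi-likelihood model of edgeR 4.0.16 in R 4.3.3, with a coefficient per line. The counts-based test was used in place of the authors' VSN and limma steps. Standard errors came from the F statistic, and exact two-sided permutation tests used log2 CPM (prior count 2). Lengths came from GENCODE on GRCh38, and coordinates and start-site windows from RefSeq (GRCh38.p14).

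Genes were named by a rule: the 9 members, up to 10 list genes per comparison with the largest differences among those called without overlap, the MMP genes beside MMP1 and MMP7, overlapping genes and the 2 nearest patterns per member. A few values that the rule would name are not reported here. CTSZ, RECK and the markers quoted were added after values were seen. The members and lists were chosen with earlier results of these data known. Alternatives were DESeq2 1.42.0, limma 3.58.1 with and without voom, other scalings and filters, fits of 2 lines, a replicate block and leaving out each library. The main fit did not pair libraries by replicate number. Same-numbered libraries of 786-M1A and 786-O deviated together (correlations of 0.074 to 0.215 across genes), and those of 786-O and HK2 did not. The p-values measure only the spread between dishes.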

Additional observations from a re-analysis of the deposited data

Results flagged for a closer look

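For 8 genes the difference from HK2 was not the same in 786-M1A as in 786-O, by edgeR's quasi-likelihood test of that difference itself, which is the contrast of 786-M1A with 786-O, since both are taken against the same 3 HK2 libraries. The log2 fold change against HK2 in 786-M1A minus that in 786-O was 2.70 for MMP2, 0.65 for PLAU, 0.47 for PLAUR and 0.20 for MMP14. It was -1.75 for MMP1, -0.87 for MMP7, -0.58 for TIMP2 and -0.14 for TIMP1. For MMP1, MMP2, MMP7, MMP14, TIMP1, TIMP2 and PLAUR the metastatic derivative lay farther from HK2 than its parental line, and for PLAU it lay nearer. Among all genes tested, 27.9% were higher and 28% lower in 786-M1A than in 786-O by the same test. Groups of 3 libraries were not tested for outlying samples.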

How the results depend on the processing

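Each of the 8 members tested kept its direction and its side of the threshold in all 3 comparisons under all 18 alternatives, which were DESeq2, RLE and upper-quartile scaling, no filter, at least 10 counts in every library, limma with and without voom, the 2 compared lines alone, the replicate block and leaving out each of 9 libraries. The log2 fold change of MMP2 ran from 7.81 to 8.03 in 786-O against HK2, from 10.52 to 10.74 in 786-M1A against HK2 and from 2.69 to 2.72 between the cancer lines. With a library left out, 3 members were higher and 5 lower against HK2 and 4 and 4 between the cancer lines in every fit, and the list gave 31 to 33 higher and 39 to 43 lower in 786-O against HK2. In the fit with a replicate block the counts of members were 3 and 5, 3 and 5, and 4 and 4, and 10688, 10797 and 7157 of all genes were called, so that it changed no call on a member. Same-numbered libraries of 786-M1A and 786-O deviated together with correlations of 0.074 to 0.215 across genes, and each of these 6 correlated best with its own number, but those of 786-O and HK2 did not (-0.057 to -0.029), and the labels name no shared batch.

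The length of all exons in place of the canonical transcript, chosen after seeing the data, moved all 12 mean ratios between genes by more than their spread; it rescales a pair by one factor in all libraries, so it does not bear on differences between lines. Depth did not allow a statement on TIMP3. Whether reads of overlapping genes were shared could not be resolved from counts.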
